A study of Labrus bergylta with 24 samples.

Results

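Amino acid and peptide transporters are the membrane proteins that carry the products of protein digestion across the gut lining and between the compartments of its cells. Their gene models were chosen by name: solute carrier families 1, 3, 7, 15, 36, 38 and 43, together with slc6a6, slc6a14, slc6a18, slc6a19, slc6a20 and slc16a10. Of the 27392 gene models in the expression table, 83 carried such a name, and they bore 40 different names. The name slc7a6os belongs to the gene on the opposite strand of slc7a6 and not to a transporter, which left 82 models of transporters. A given name was often carried by several models, so that 67 models shared 24 names, and slc6a19 alone had 7. A filter of at least 10 normalized counts in at least 6 libraries was passed by 64 members, against 19515 of all gene models.

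The samples were whole-tissue RNA from the intestine of the ballan wrasse (Labrus bergylta), a fish without a stomach. Each of 6 farmed fish gave 4 consecutive segments, numbered from segment 1 at the anterior end to segment 4, the hind-gut, so that there were 24 libraries with 6 per segment. The labels give no treatment or genetic change, all fish came from a commercial farm as adults, and neither their age nor their strain is stated. The numbers of fish and libraries in the study's methods differ from those in the labels, and the labels were followed.

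Protein in the gut lumen is cut to free amino acids and to short peptides, and enterocytes take up both at their brush border. Peptide carriers of family 15 use the proton gradient, and the main neutral amino acid carrier of the brush border, slc6a19, uses the sodium gradient. Heteromeric transporters consist of a heavy chain of family 3 and a light chain of family 7 and work mostly as exchangers on both faces of the cell. In the fish hind-gut, vacuolated enterocytes also take up whole protein by endocytosis and digest it in lysosomes, from which other carriers release the amino acids.

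Values are normalized counts, which are the reads of a gene model scaled by the size factor of each library. They are not divided by gene length, so levels are compared between segments and not between genes. Reads per library, recovered from the values, lay between 7867202 and 29650314, with medians per segment of 18174942.5, 21337415.5, 18238347.5 and 21065920 from segment 1 to segment 4. Over 1000 gene models that differed most among segments, all 24 libraries correlated best with the mean profile of their own segment in the other fish. For each fish, these models were chosen from the libraries of the other fish alone. The segment 4 library of fish 2 stood apart, with a correlation of 0.676 with segment 4, against 0.947 to 0.979 for the other segment 4 libraries, and of 0.251 with segment 3. Segment 3 of fish 6 and of fish 2 and segment 2 of fish 6 had lower correlations with their own segment than the rest (0.392, 0.582 and 0.598). Most results on segment 4 are therefore also given without the segment 4 library of fish 2. Villin, fabp2 and cadherin 17, which mark enterocytes, were above 0 in every library, and the summed counts of the 18 marker models had medians of 411300, 354500, 300600 and 177700 from segment 1 to segment 4, with ranges of 144400 to 218800 in segment 4 and of 325600 to 433200 in segment 1. The 16 marker models of vacuolated hind-gut enterocytes, among them cubilin and amnionless, summed to medians of 29910, 29310, 49530 and 180100, with ranges of 89000 (fish 2) to 230400 in segment 4 and of 20400 to 38050 in segment 1. Cubilin and amnionless were above 0 in every library, whereas several of the lrp2 and plb1 models were at 0 in some. The single models did not all rise in segment 4, as counted below. Cubilin rose from a median of 21.77 in segment 1 to 25080 in segment 4, whereas PLB1 (LABE_00006850) fell from 9751 to 45.75. In segment 3 the sum held PLB1 (LABE_00025919) with a median of 24430, where cubilin and amnionless had 19.26 and 33.25. Markers of the exocrine pancreas ranged from 688 to 346000 among libraries with no order along the gut, and those of leukocytes had medians of 24260, 32240, 45120 and 42250. The part of any of these cell types in the results was not tested.

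Transporter genes differed among the segments. The most calls came in segment 4 against segment 1, as they also did over all gene models. In a moderated F test over the 4 segments (limma, log2 of the value + 1, Benjamini-Hochberg adjusted p under 0.05), 28 of the 64 members tested were called, or 43.8%, beside 27.5% of all gene models. The mean was highest in segment 1 for 21 members, in segment 2 for 5, in segment 3 for 11 and in segment 4 for 27. These counts take in members that did not pass the F test. The same count over all gene models was not made, so they are not read as a trait of the transporters. The p-values of fits without a term for fish rest on the spread between fish within segments (n = 6 per segment). Those with fish as a block, and those of the exact test within fish, rest on the spread of differences within fish. The comparisons share libraries where they share a segment. Log2 fold changes are printed ± their standard error.

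Segment 4 against segment 1 gave 15 members higher and 16 lower among the 64 tested (23.4% and 25%), and the same test called 17.1% of all gene models higher and 14.8% lower. Without the segment 4 library of fish 2 the counts were 14 higher and 14 lower, beside 3531 and 3002 of the 19515 gene models tested. With fish as a block they were 18 higher and 18 lower, beside 4285 and 3865 of the 19515. Segment 4 against segment 3 gave 9 higher (14.1%) and 6 lower (9.38%), beside 5.21% and 5.82% of all gene models. Without that library of fish 2 it gave 10 higher and 7 lower, beside 1458 and 1500 of the 19515. With the block it gave 10 higher and 8 lower, beside 1691 and 1888. Segment 3 against segment 1 gave 7 higher (10.9%) and 6 lower (9.38%), where 7.13% and 6.81% of all gene models were called. With the block it gave 9 higher and 10 lower, beside 2226 and 2297 of the 19515. Segment 3 against segment 2 gave 2 higher and none lower, SLC15A1 (LABE_00049604) and SLC1A1 (LABE_00035589), where 1.01% of all gene models were higher and 1.07% lower. At an unadjusted p under 0.05, 6 members passed in that comparison. With the block 3 were higher and none lower, beside 460 and 603 of the 19515. In segment 2 against segment 1, limma called none of the 64 members, although 11 had an unadjusted p under 0.05, and the background was 0.477% higher and 0.2% lower. edgeR and DESeq2 on the recovered reads called 1 member each there as higher. Of all gene models, edgeR called 120 higher and 39 lower, and DESeq2 203 higher and 80 lower. limma with fish as a block called 3 members, 2 higher and 1 lower, beside 239 and 135 of all gene models. The plot of all tested members sets out each fold change by the role of the protein.

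**Figure D1:**
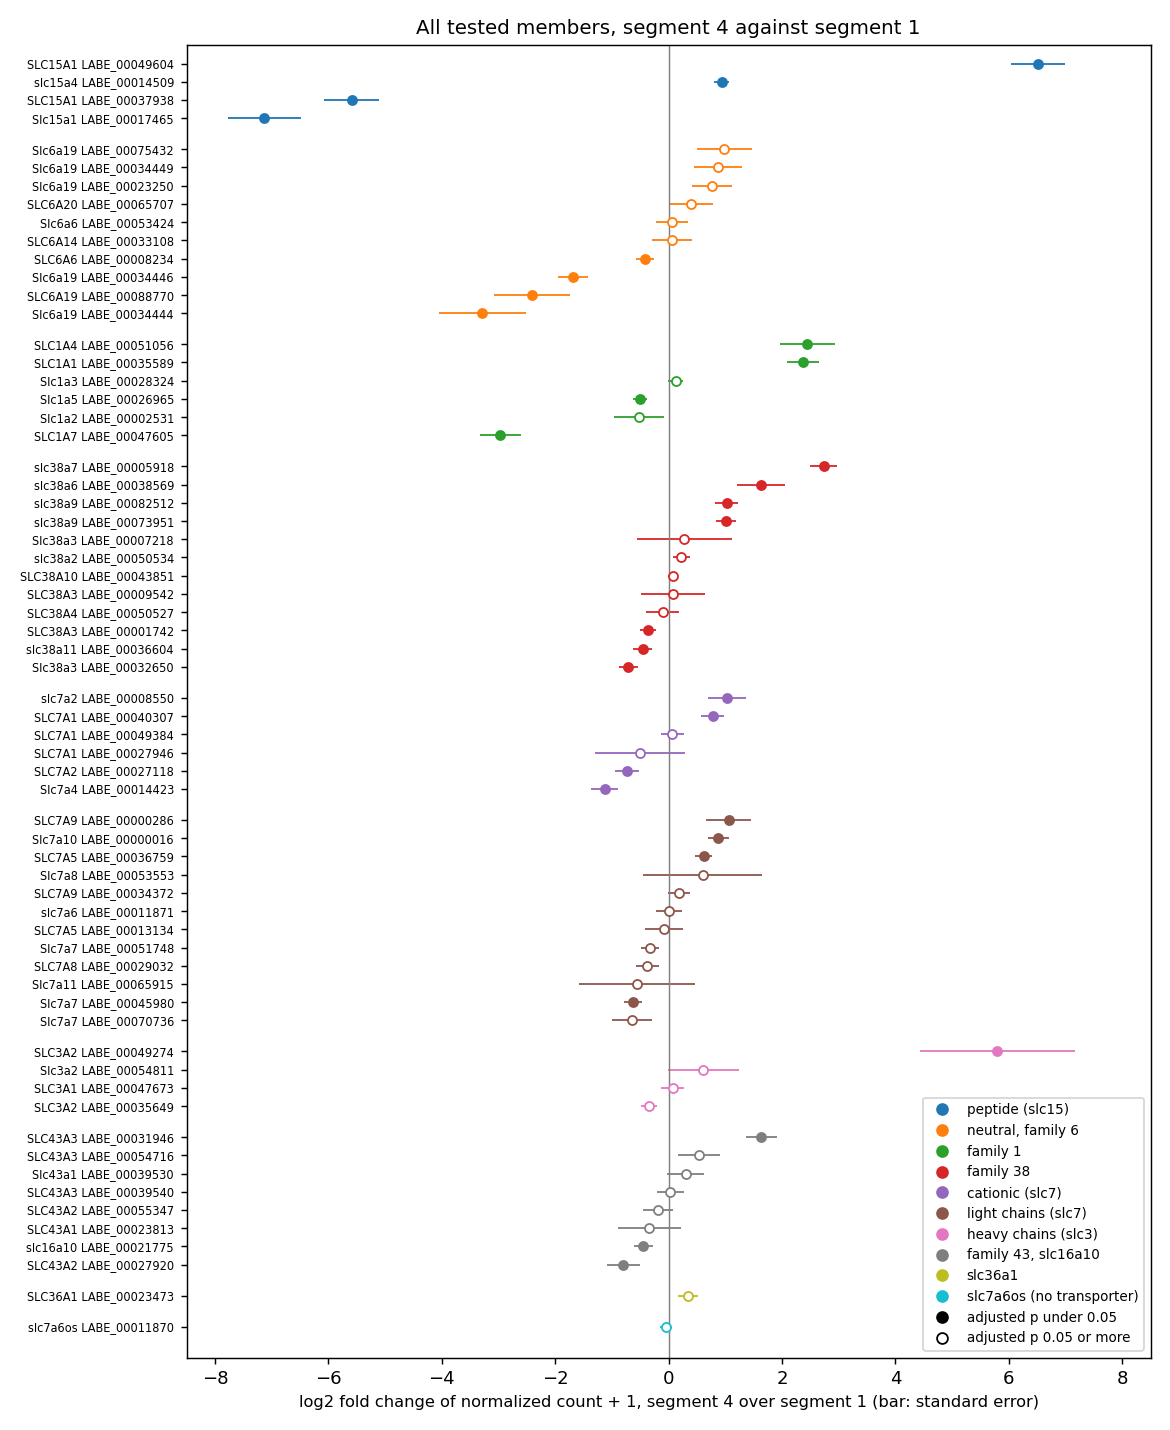
Log2 fold change of the normalized count + 1 between segment 4 and segment 1 for the 64 members tested, grouped by role, with bars of 1 standard error (n = 6 fish per segment). Filled points passed an adjusted p of 0.05 in limma, 15 of them on the right (higher in segment 4) and 16 on the left (lower), and the peptide transporters span the widest range.

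The peptide transporter models differed in the direction of their change between segment 4 and segment 1. All 4 models of family 15 passed the F test, beside 27.5% of all gene models. Between segment 4 and segment 1 a pair was lower and a pair was higher (50% each). The shares of all gene models were 14.8% lower and 17.1% higher. The intestinal carrier pept1 (slc15a1) takes up di- and tripeptides with protons at the brush border, and it was represented by SLC15A1 (LABE_00037938) and Slc15a1 (LABE_00017465). SLC15A1 (LABE_00037938) had normalized counts of 42020 to 87447 in segment 1 (median 61170), 37802 to 75340 in segment 2 (median 50490), 27986 to 46947 in segment 3 (median 31330) and 667 to 14451 in segment 4 (median 789.5). Its 6 segment 4 libraries all lay below the libraries of the other segments, and the 5 other fish were between 667 and 889 there while fish 2 had 14451. SLC15A1 (LABE_00037938) fell in segment 4 against segment 1 with a log2 fold change of -5.59 ± 0.49 (limma adjusted p = 5.38e-09), and -6.29 (limma adjusted p = 1.38e-17) without segment 4 of fish 2. Against segment 3 it fell by the same test with a log2 fold change of -4.75 ± 0.49 (limma adjusted p = 2.45e-07), and -5.46 (limma adjusted p = 2.28e-16) without that library. Between segment 3 and segment 1 it had a log2 fold change of -0.83 ± 0.49 (limma adjusted p = 0.3), and this comparison passed when segment 4 of fish 2 was left out (limma adjusted p = 0.00149) or all of fish 2 (0.0113). In whole tissue, fewer cells of a type and less RNA per cell cannot be told apart.

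Slc15a1 (LABE_00017465) had values of 9846 to 23290 in segment 1 (median 16690), 10971 to 22269 in segment 2 (median 13520), 4238 to 15131 in segment 3 (median 10980) and 42.6 to 2650.3 in segment 4 (median 63.98). Here too every segment 4 library lay below every library of segments 1 to 3, and fish 2 was again the highest of segment 4 (2650, against 42.6 to 77.9 in the other fish). Slc15a1 fell in segment 4 against segment 1 with a log2 fold change of -7.13 ± 0.65 (limma adjusted p = 8.49e-09), and -8.04 (limma adjusted p = 1.54e-16) without segment 4 of fish 2. Against segment 3 the values were a log2 fold change of -6.44 ± 0.65 (limma adjusted p = 1.6e-07), and -7.35 (limma adjusted p = 1.21e-15) without that library. The summed enterocyte markers were 177700 in segment 4 and 411300 in segment 1 at the median, and single markers went either way. MEP1B (LABE_00001277) had medians of 32970 in segment 1 and 26.25 in segment 4, and Mep1b (LABE_00047837) 6.536 and 1325. Among the 18 enterocyte marker models, 12 fell (66.7%) and 2 rose (11.1%) in segment 4 against segment 1 in limma. The shares of all gene models were 14.8% and 17.1%. With fish as a block 13 fell and 2 rose, beside 3865 and 4285 of the 19515 gene models tested. The median log2 fold change of the 18 was -1.35. A part of enterocyte number in the pept1 results was not tested.

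The third model named SLC15A1 (LABE_00049604) ran the other way. The study identifies it as slc15a2 (pept2), which in mammals is the high-affinity peptide carrier of the kidney tubule. It had normalized counts of 38.2 to 137 in segment 1 (median 67.9), 87.0 to 1488 in segment 2 (median 190.1), 1928 to 7962 in segment 3 (median 3546) and 4572 to 8714 in segment 4 (median 6332). The libraries of segments 3 and 4 all lay above those of segments 1 and 2, and in segment 2 fish 6 stood above the others, with 1488 against 87.0 to 246. SLC15A1 (LABE_00049604) rose in segment 3 against segment 2 with a log2 fold change of 4.11 ± 0.48 (limma adjusted p = 9.5e-05), or 4.73 (limma adjusted p = 1.45e-07) without fish 6, and in segment 3 against segment 1 with a log2 fold change of 5.84 ± 0.48 (limma adjusted p = 3.07e-08). In segment 4 against segment 1 it rose by 6.52 on the log2 scale, with a standard error of 0.48 and a limma adjusted p of 2.61e-10, in 6 of 6 fish, and by 6.60 (limma adjusted p = 4.72e-10) without segment 4 of fish 2. Segment 2 against segment 1 showed a log2 fold change of 1.73 ± 0.48 (limma adjusted p = 0.114), which passed with fish as a block (0.0295), with edgeR (0.0381), with DESeq2 (0.00168) and with array weights (0.0371).

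The fourth member, slc15a4 (LABE_00014509), encodes a carrier of histidine and peptides that in mammals sits in endosomes and lysosomes. Like every member given as named outside the rule, it was chosen after its values were seen. Its counts were 632 to 1018 in segment 1 (median 829.6), 785 to 959.6 in segment 2 (median 884), 842 to 1235 in segment 3 (median 888) and 1182 to 1931 in segment 4 (median 1646). In segment 4 every library was above those of segment 1, and fish 1 and 2 were the lowest there. slc15a4 rose with a log2 fold change of 0.94 ± 0.13 (limma adjusted p = 5.55e-06) in 6 of 6 fish, and 1.01 (limma adjusted p = 1.69e-06) without segment 4 of fish 2.

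**Figure D2:**
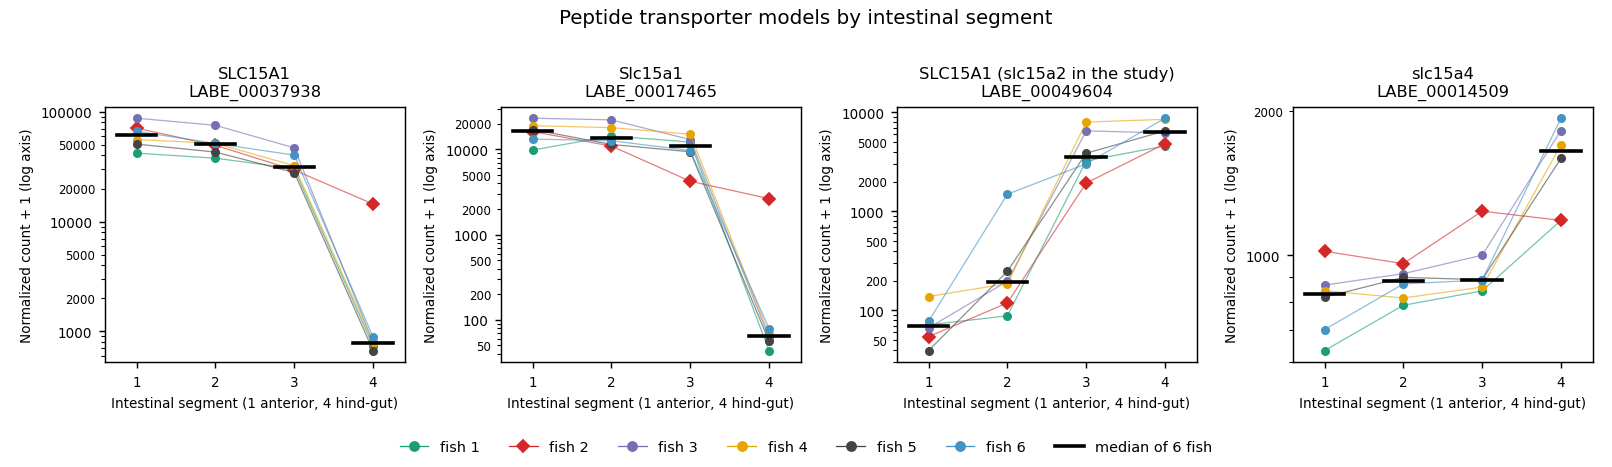
Normalized counts + 1 (log axis) of the 4 peptide transporter models in segments 1 to 4, with a line for each of 6 fish and a black bar for the median. Both pept1 models are lowest in segment 4, where fish 2 (red diamonds) lies above the other fish, LABE_00049604 is highest in segments 3 and 4, and slc15a4 is highest in segment 4 except in fish 2.

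The carriers of family 6 differed among themselves. Of 10 models tested, 4 were lower (40%) in segment 4 than in segment 1, beside 14.8% of all gene models. The other 6 did not pass. The 10 models had a median log2 fold change of 0.07, beside 0.04 over all gene models. With fish as a block, 3 of those 6 were called higher, beside 4285 of the 19515 gene models tested. The group takes its spread from slc6a19, the sodium-dependent carrier of neutral amino acids in the brush border, whose 6 tested models peaked in different segments. A seventh, LABE_00034448, stayed at or below 8.29 in all libraries. RefSeq lists 1 wrasse gene with this symbol (slc6a19b), and genes under other symbols are not in that count. The same count gives 0 for slc6a6 and slc6a20, whose models had reads here. How many genes the slc6a19 models stand for is therefore not settled. Reads that fit several of the models could have been counted in any of them, since no source used here states how such reads were handled.

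The model Slc6a19 (LABE_00034446) declined along the gut, with counts of 19389 to 40126 in segment 1 (median 24040), 14787 to 32403 in segment 2 (median 21060), 11878 to 27131 in segment 3 (median 17950) and 4751 to 16069 in segment 4 (median 7754). No segment 4 library reached the lowest value of segment 1, and fish 2 was the highest in segment 4. It fell in segment 4 against segment 1 with a log2 fold change of -1.68 ± 0.27 (limma adjusted p = 2.92e-05), and -1.88 (limma adjusted p = 2.91e-06) without segment 4 of fish 2. It also fell relative to segment 3, with a log2 fold change of -1.14 ± 0.27 (limma adjusted p = 0.00432), and -1.34 (limma adjusted p = 0.000375) without that library. Segment 3 against segment 1 showed a log2 fold change of -0.54 ± 0.27 (limma adjusted p = 0.202), which passed with fish as a block (0.0024).

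Slc6a19 (LABE_00034444) peaked in segment 3 and was lowest in segment 4 in all fish but fish 2, with counts of 334 to 822 in segment 1 (median 565), 1042 to 2856 in segment 2 (median 1834), 1477 to 4589 in segment 3 (median 3199) and 15.7 to 2179 in segment 4 (median 28.5). The other 5 fish had 15.7 to 44.6 in segment 4, whereas fish 2 had 2179, which is inside the range of segment 3. In segment 4 against segment 3 it fell with a log2 fold change of -5.79 ± 0.76 (limma adjusted p = 5.9e-06), and -6.86 (limma adjusted p = 1.7e-13) without segment 4 of fish 2. In segment 4 against segment 1 it showed a log2 fold change of -3.28 ± 0.76 (limma adjusted p = 0.00176) and was lower in 5 of 6 fish. The call was lost with edgeR (log2 fold change -0.54, adjusted p = 0.694) and DESeq2 (-0.53, adjusted p = 0.695), and without segment 4 of fish 2 limma gave -4.35 (limma adjusted p = 3.95e-10). Between segment 3 and segment 1 the groups did not overlap, with a log2 fold change of 2.51 ± 0.76 (limma adjusted p = 0.0281), and this call was lost when any of fish 1, 3, 4, 5 or 6 was left out (limma adjusted p = 0.0676 to 0.0937) and with edgeR (0.0685), but not without segment 4 of fish 2 (6.79e-06). Segment 2 against segment 1 showed a log2 fold change of 1.70 ± 0.76 (limma adjusted p = 0.56) with groups that did not overlap, and passed without segment 4 of fish 2 (limma adjusted p = 0.00662).

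Slc6a19 (LABE_00023250) was highest in the middle of the gut, with counts of 1883 to 15437 in segment 1 (median 6695), 6587 to 17833 in segment 2 (median 13630), 11544 to 21121 in segment 3 (median 16350) and 6873 to 12956 in segment 4 (median 11100). Fish 1 was the lowest in each of the 4 segments. It rose in segment 3 against segment 1 with a log2 fold change of 1.36 ± 0.35 (limma adjusted p = 0.00949) in 6 of 6 fish, a call that was lost without fish 4 (limma adjusted p = 0.074). In segment 4 against segment 1 it showed a log2 fold change of 0.77 ± 0.35 (limma adjusted p = 0.0977), and 0.76 (limma adjusted p = 0.124) without segment 4 of fish 2. That comparison passed with fish as a block (0.0163), with quantile normalization (0.0389) and without fish 3 (0.0345), and with the block segment 2 against segment 1 passed too (log2 fold change 1.00, limma adjusted p = 0.0385).

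Slc6a19 (LABE_00075432) had the reverse shape, with counts of 183 to 748 in segment 1 (median 469.7), 64.8 to 368 in segment 2 (median 192), 69.2 to 418 in segment 3 (median 131) and 430.0 to 1437 in segment 4 (median 893). Its segment 4 libraries all lay above those of segment 3, and fish 1, 4 and 5 were above fish 2 and 6 at either end of the gut. It rose in segment 4 against segment 3 with a log2 fold change of 2.43 ± 0.48 (limma adjusted p = 0.000959), and 2.59 (limma adjusted p = 0.00067) without segment 4 of fish 2. In segment 3 against segment 1 it fell with a log2 fold change of -1.45 ± 0.48 (limma adjusted p = 0.0475), a call that was lost without fish 1, 3, 5 or 6 (limma adjusted p = 0.0564 to 0.151), with edgeR (0.056), with array weights (0.114), with robust moderation (0.055) and with no filter (0.061). In 6 of 6 fish its value was higher in segment 4 than in segment 1, but the groups overlapped, with a log2 fold change of 0.99 ± 0.48 (limma adjusted p = 0.13), or 1.14 (limma adjusted p = 0.0883) without segment 4 of fish 2. With fish as a block that comparison passed (limma adjusted p = 0.000229), as did segment 2 against segment 1, which had a log2 fold change of -1.21 ± 0.48 (limma adjusted p = 0.448) without the block and 0.00102 with it.

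Slc6a19 (LABE_00034449) had counts of 4698 to 15267 in segment 1 (median 10870), 1916 to 15577 in segment 2 (median 8123), 4926 to 34506 in segment 3 (median 8256) and 11405 to 22241 in segment 4 (median 17330). Fish 2 was the highest in every segment and stood alone in segment 3, where the other fish had 4926 to 10338. Segment 4 against segment 1 showed a log2 fold change of 0.87 ± 0.43 (limma adjusted p = 0.13), or 0.80 (limma adjusted p = 0.195) without segment 4 of fish 2, and it passed with fish as a block (0.0305). SLC6A19 (LABE_00088770) had counts of 1296 to 3090.3 in segment 1 (median 1730), 533 to 1621 in segment 2 (median 866), 239.5 to 1889.8 in segment 3 (median 441) and 20.1 to 1213 in segment 4 (median 573). In segment 4, fish 5 was at 20.1 and the other fish were at 318 to 1213. It fell in segment 4 against segment 1 with a log2 fold change of -2.40 ± 0.67 (limma adjusted p = 0.0079), with -2.63 (limma adjusted p = 0.00565) without segment 4 of fish 2 and by a log2 fold change of -1.70 (limma adjusted p = 0.00622) without fish 5. Segment 3 against segment 1 showed a log2 fold change of -1.71 ± 0.67 (limma adjusted p = 0.0974), which passed with fish as a block (0.0114), with array weights (0.0168) and without fish 5 (0.0234).

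**Figure D3:**
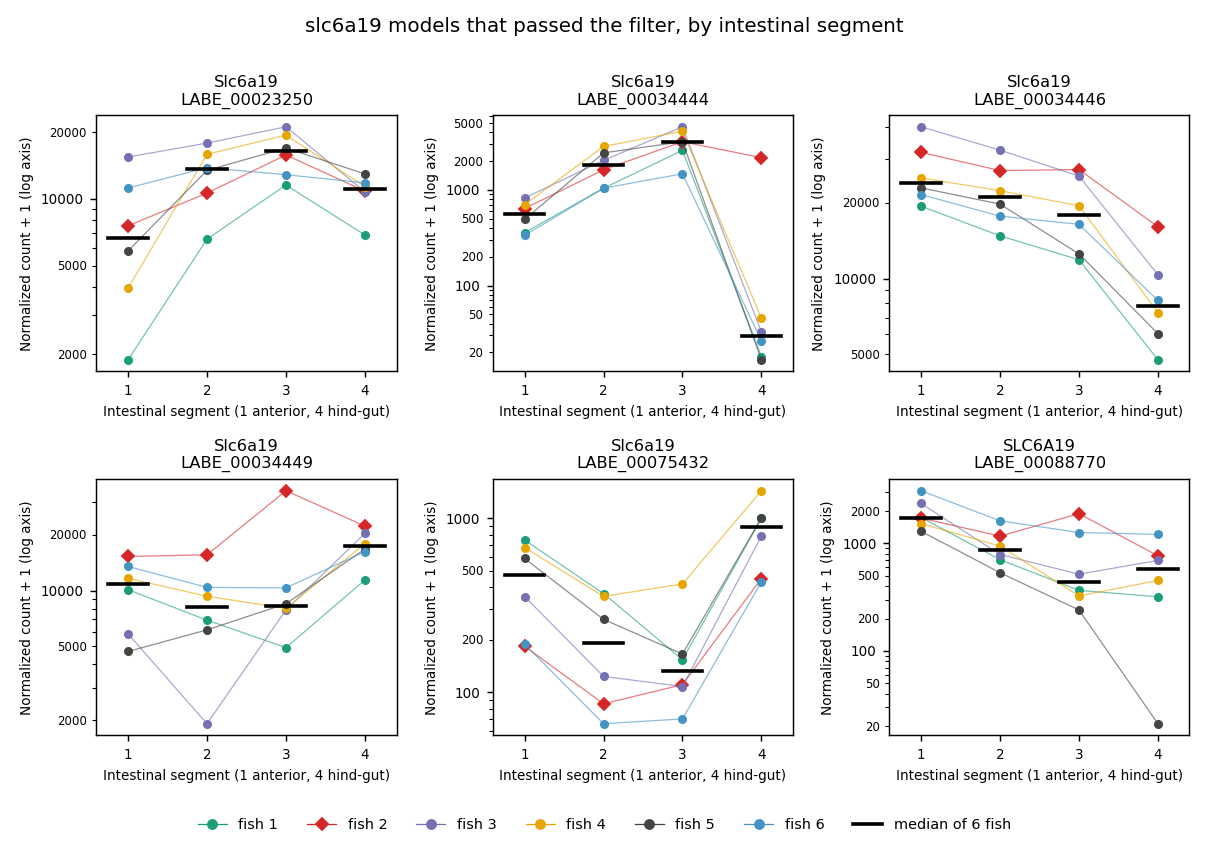
Normalized counts + 1 (log axis) of the 6 slc6a19 models that passed the filter, in segments 1 to 4, with a line per fish and a black bar for the median. LABE_00034446 is lowest in segment 4, LABE_00034444 is lowest in segment 4 in all fish but fish 2, and LABE_00075432 is lowest in segments 2 and 3.

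Changes of models that share a name were compared within fish, from segment 4 minus segment 1 on the log2 scale, by an exact two-sided permutation test with sign flips over 6 fish. Only pairs with both models past the filter and at least 1 called in segment 4 against segment 1 were taken. These were 34 pairs under 13 names, so they were chosen on the change that is compared. None had an adjusted p under 0.05, 13 had the smallest p that 6 fish allow (0.03125), and the lowest adjusted p was 0.0817 in this exact test. Most of the 34 pairs would have to reach that smallest p for any adjusted p to pass. The lack of calls is therefore not read as equal change. The within-fish change of Slc6a19 LABE_00034446 minus that of LABE_00075432 was -2.66 ± 0.30 (SD, n = 6), negative in 6 of 6 fish, with an exact permutation p of 0.03125. That of SLC15A1 LABE_00037938 minus LABE_00049604 was -12.11 ± 1.78 (SD, n = 6), also negative in 6 of 6 fish, with the same exact p. This p was fixed in advance, since LABE_00037938 fell and LABE_00049604 rose without overlap of segments 4 and 1. The study identifies LABE_00049604 as slc15a2, so this pair shares a name in the expression table only. Both pairs were picked from the 13 tied at the smallest p.

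The remaining members of family 6 are the imino acid carrier SLC6A20 (LABE_00065707), the broad carrier SLC6A14 (LABE_00033108) and a pair of models of the taurine carrier slc6a6. They are named here outside the rule. SLC6A6 (LABE_00008234) was the fourth model lower in segment 4 than in segment 1, with a log2 fold change of -0.41 ± 0.16 (limma adjusted p = 0.0496), or -0.47 (limma adjusted p = 0.0266) without segment 4 of fish 2. This call was lost without fish 1, 3, 4, 5 or 6 (limma adjusted p = 0.059 to 0.19), with edgeR (0.0646), with DESeq2 (0.0556), with quantile normalization (0.0625), with TMM scaling (0.0511) and with no filter (0.0629). SLC6A20 had a log2 fold change of 0.40 ± 0.38 (limma adjusted p = 0.471), SLC6A14 a log2 fold change of 0.07 ± 0.35 (limma adjusted p = 0.916) and Slc6a6 (LABE_00053424) a log2 fold change of 0.07 ± 0.28 (limma adjusted p = 0.895) in the same limma comparison.

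Of the heavy chains of heteromeric transporters, 1 of 4 was higher in segment 4 than in segment 1 and the other 3 did not pass. That is 25%, beside 17.1% of all gene models called higher. The called model is SLC3A2 (LABE_00049274), which passed the filter only through the later segments, as given below. SLC3A2 (LABE_00035649) encodes 4F2hc, the heavy chain of basolateral exchangers, and had counts of 10939 to 17430 in segment 1 (median 14480), 10976 to 20659 in segment 2 (median 15300), 10315 to 15049 in segment 3 (median 12480) and 9626 to 13721 in segment 4 (median 10530). It was lower in segment 4 than in segment 1 in 6 of 6 fish with overlapping groups, and showed a log2 fold change of -0.34 ± 0.15 (limma adjusted p = 0.079), or -0.30 (limma adjusted p = 0.143) without segment 4 of fish 2. The comparison passed with fish as a block (limma adjusted p = 0.0161) and with array weights (0.048).

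Another model of the same name, SLC3A2 (LABE_00049274), was close to the limit of counting in the anterior gut and had counts of 0 to 2.54 in segment 1 (median 1.23), 0 to 32.9 in segment 2 (median 1.60), 0 to 261 in segment 3 (median 13.3) and 3.503 to 1948 in segment 4 (median 151). In segment 4, fish 4 and fish 6 had 7.29 and 3.503 and the other fish 122 to 1948, so the fish differed far more than they did for LABE_00035649. It rose in segment 4 against segment 1 with a log2 fold change of 5.80 ± 1.37 (limma adjusted p = 0.00207) in 6 of 6 fish, and 5.66 (limma adjusted p = 0.00442) without segment 4 of fish 2. The size of this change depended on the value added before the logarithm (6.28 with 0.5 and 3.99 with 8) and on single fish (4.77 without fish 5 and 6.75 without fish 6). Segment 3 against segment 1 showed a log2 fold change of 2.86 ± 1.37 (limma adjusted p = 0.185) in limma and passed with edgeR (0.0384) and DESeq2 (0.00316). A further model, Slc3a2 (LABE_00054811), had a log2 fold change of 0.61 ± 0.63 (limma adjusted p = 0.505), with a highest value of 208 in segment 4 of fish 5. The heavy chain of the cystine and cationic amino acid exchanger, SLC3A1 (LABE_00047673), had a log2 fold change of 0.07 ± 0.20 (limma adjusted p = 0.83) and is named outside the rule.

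Among the light chains, 12 models were tested, of which 3 were higher (25%) and 1 was lower (8.33%) in segment 4 than in segment 1, beside 17.1% and 14.8% of all gene models. SLC7A8 (LABE_00029032), the LAT2 exchanger of large neutral amino acids, had the highest mean of them and counts of 3624 to 5891 in segment 1 (median 4689), 2779.8 to 7836 in segment 2 (median 5104), 3789 to 7218 in segment 3 (median 4804) and 2472 to 4062 in segment 4 (median 3674). Fish 2 was the lowest in every segment. Segment 4 against segment 1 showed a log2 fold change of -0.37 ± 0.20 (limma adjusted p = 0.171) with 6 of 6 fish lower in segment 4, or -0.27 (limma adjusted p = 0.337) without segment 4 of fish 2, and passed with fish as a block (0.0452). Segment 4 against segment 3 showed a log2 fold change of -0.49 ± 0.20 (limma adjusted p = 0.132) and passed with the block (0.0204) and without fish 2 (0.0499). The other model, Slc7a8 (LABE_00053553), had a log2 fold change of 0.60 ± 1.05 (limma adjusted p = 0.718), with medians of 3.87, 9.37, 10.4 and 3.42 from segment 1 to segment 4 and single libraries of up to 133.

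The light chains that passed in segment 4 against segment 1 are named outside the rule. Slc7a10 (LABE_00000016), an exchanger of small neutral amino acids, rose with a log2 fold change of 0.88 ± 0.19 (limma adjusted p = 0.000876), or 0.78 (limma adjusted p = 0.00268) without segment 4 of fish 2, with groups that did not overlap and 6 of 6 fish higher. SLC7A5 (LABE_00036759), the LAT1 exchanger, rose with a log2 fold change of 0.62 ± 0.15 (limma adjusted p = 0.00206) in 6 of 6 fish, or 0.68 (limma adjusted p = 0.00132) without that library. SLC7A9 (LABE_00000286), the partner of slc3a1 in the brush border, had a log2 fold change of 1.06 ± 0.39 (limma adjusted p = 0.0424), or 1.09 (limma adjusted p = 0.0497) without that library. The call was lost with edgeR (0.115), with DESeq2 (0.0739), with no filter (0.0533) and without fish 1, 2, 3, 5 or 6 (limma adjusted p = 0.0763 to 0.137) and held with fish as a block (5.11e-05). The second model, SLC7A9 (LABE_00034372), had a log2 fold change of 0.18 ± 0.20 (limma adjusted p = 0.537), and in segment 3 against segment 1 both SLC7A9 models passed only with the block (0.0102 for LABE_00000286 and 0.0172 for LABE_00034372). Slc7a7 (LABE_00045980), the y+LAT1 exchanger of cationic amino acids at the basolateral face, fell with a log2 fold change of -0.63 ± 0.16 (limma adjusted p = 0.00392) in 6 of 6 fish, or -0.62 (limma adjusted p = 0.00685) without segment 4 of fish 2. A further Slc7a7 model (LABE_00051748) showed a log2 fold change of -0.33 ± 0.16 (limma adjusted p = 0.136), and passed as lower without segment 4 of fish 2 (limma adjusted p = 0.00976), where that library had 240.5 and the others 115 to 158. Reads of slc7a6 and slc7a6os cannot be told apart where the genes overlap, since the library kit does not mark strand, and neither passed in any of the 5 comparisons.

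The cationic amino acid carriers were represented by 6 tested models, of which 2 were higher and 2 lower in segment 4 than in segment 1 (33.3% each), beside 17.1% and 14.8% of all gene models. SLC7A2 (LABE_00027118), a carrier of arginine, lysine and ornithine, had counts of 17711 to 28191 in segment 1 (median 21090), 14632 to 27712 in segment 2 (median 17050), 9354 to 31376 in segment 3 (median 12700) and 9662 to 16413 in segment 4 (median 12660). No segment 4 library reached the lowest of segment 1, and fish 2 was the highest in all 4 segments and stood at 31376 in segment 3. SLC7A2 (LABE_00027118) fell in segment 4 against segment 1 with a log2 fold change of -0.73 ± 0.21 (limma adjusted p = 0.0109), and -0.80 (limma adjusted p = 0.00753) without segment 4 of fish 2, and quantile normalization took this call away (0.0633). Segment 3 against segment 1 showed a log2 fold change of -0.55 ± 0.21 (limma adjusted p = 0.0935) and passed with fish as a block (0.00321), with array weights (0.0106) and without fish 2 (0.00134).

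The model slc7a2 (LABE_00008550) went the other way, with counts of 17.3 to 45.2 in segment 1 (median 26.3), 17.4 to 44.2 in segment 2 (median 37.0), 29.0 to 69.4 in segment 3 (median 43.2) and 29.8 to 147 in segment 4 (median 54.5). In segment 4, fish 2 had 147 and the others 29.8 to 73.8. It showed a log2 fold change of 1.03 ± 0.34 (limma adjusted p = 0.0217) with 5 of 6 fish higher in segment 4, and the call was lost without segment 4 of fish 2 (log2 fold change 0.77, limma adjusted p = 0.062), with array weights (0.131) and without fish 1, 4 or 5 (0.0538 to 0.0897). A pair of further models of this name, LABE_00015106 and LABE_00049300, did not pass the filter. Slc7a4 (LABE_00014423) belongs to the same subfamily by sequence, and its substrate is not settled. It had counts of 83.8 to 187 in segment 1 (median 134), 55.8 to 142 in segment 2 (median 113), 78.1 to 129.9 in segment 3 (median 112) and 39.5 to 94.7 in segment 4 (median 57.7), and the groups of segments 4 and 1 overlapped although 6 of 6 fish were lower in segment 4. Slc7a4 fell in segment 4 against segment 1 with a log2 fold change of -1.12 ± 0.24 (limma adjusted p = 0.000778), and -1.26 (limma adjusted p = 0.000233) without segment 4 of fish 2. Against segment 3 it fell with a log2 fold change of -0.84 ± 0.24 (limma adjusted p = 0.0205), or -0.98 (limma adjusted p = 0.00536) without that library, and this call was lost without fish 1, 5 or 6 (limma adjusted p = 0.0936 to 0.125). SLC7A1 (LABE_00040307), the CAT1 carrier, is named outside the rule and rose with a log2 fold change of 0.78 ± 0.20 (limma adjusted p = 0.00471) in 6 of 6 fish, or 0.69 (limma adjusted p = 0.0129) without segment 4 of fish 2. The other tested models of this name did not pass in limma, with log2 fold changes of 0.07 for LABE_00049384 and -0.50 for LABE_00027946. DESeq2 called LABE_00027946 as lower (log2 fold change -1.79, DESeq2 adjusted p = 0.0302). The rise is therefore that of a single model and not of the name.

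**Figure D4:**
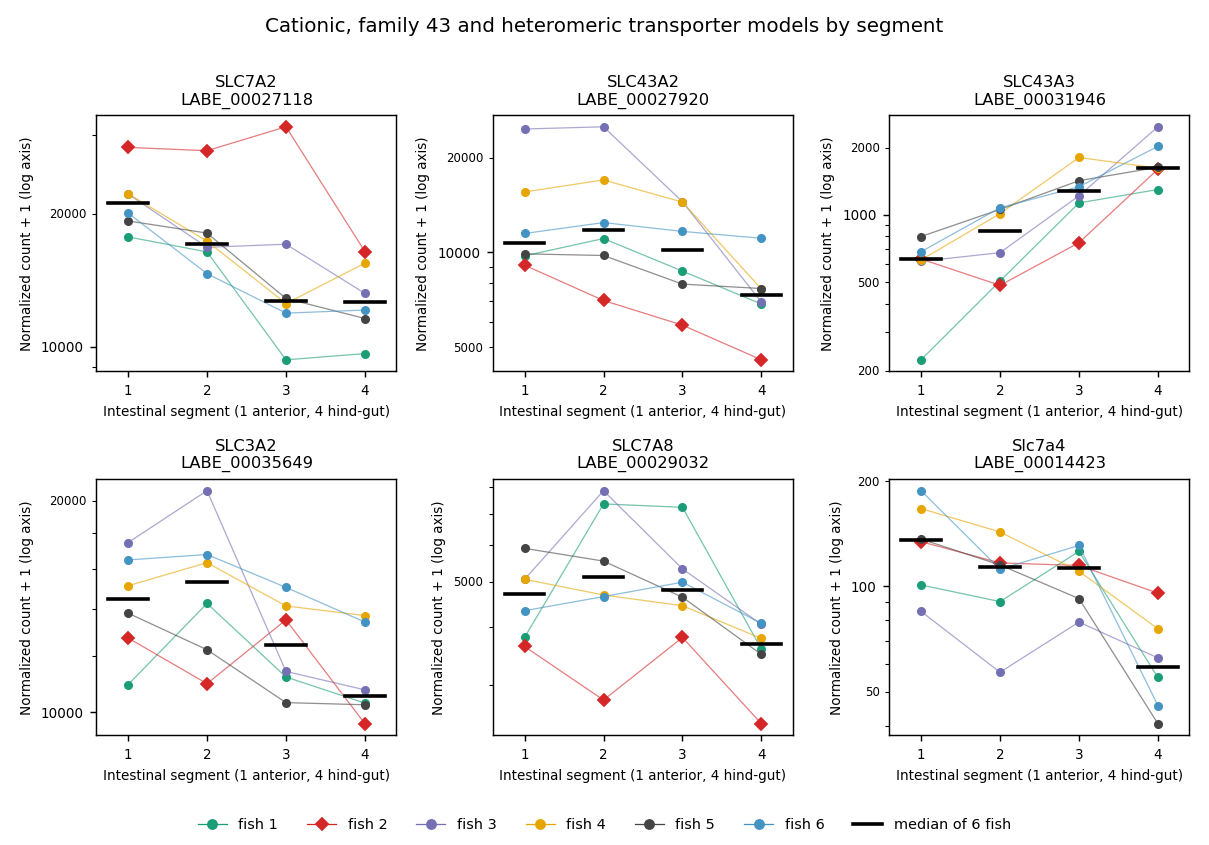
Normalized counts + 1 (log axis) in segments 1 to 4 of SLC7A2, SLC43A2, SLC43A3, SLC3A2, SLC7A8 and Slc7a4, with a line per fish and a black bar for the median of 6 fish. SLC7A2 and Slc7a4 are lower in segment 4 and SLC43A3 is higher, and fish 2 (red diamonds) is the highest of SLC7A2 and the lowest of SLC7A8 in each segment.

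Family 1 joins the glutamate carriers with the neutral exchangers. Of its 6 tested models, 5 passed the F test (83.3%), beside 27.5% of all gene models. In segment 4 against segment 1, 2 were higher and 2 were lower (33.3% each), beside 17.1% and 14.8% of all gene models. SLC1A1 (LABE_00035589), or EAAT3, is the sodium-coupled carrier of glutamate, aspartate and cysteine in the enterocyte brush border, and it had counts of 1355 to 3599 in segment 1 (median 2240), 1059 to 3312 in segment 2 (median 2111), 3195 to 7963 in segment 3 (median 4852) and 9783 to 13915 in segment 4 (median 12770). Every segment 4 library exceeded all libraries of segments 1 to 3. SLC1A1 (LABE_00035589) rose in segment 4 against segment 1 with a log2 fold change of 2.38 ± 0.28 (limma adjusted p = 5.91e-07), and 2.44 (limma adjusted p = 1.03e-06) without segment 4 of fish 2. Against segment 3 it rose with a log2 fold change of 1.26 ± 0.28 (limma adjusted p = 0.00307), and 1.32 (limma adjusted p = 0.00294) without that library. In segment 3 against segment 2 it rose with a log2 fold change of 1.38 ± 0.28 (limma adjusted p = 0.0102) in 6 of 6 fish, a call that was lost without fish 1, 3 or 4 (limma adjusted p = 0.0681 to 0.104), and in segment 3 against segment 1 with a log2 fold change of 1.12 ± 0.28 (limma adjusted p = 0.009), which was lost without fish 1 (0.052). A second model, SLC1A1 (LABE_00039664), never exceeded 1.89.

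SLC1A4 (LABE_00051056), or ASCT1, exchanges small neutral amino acids such as alanine and serine, and it had counts of 74.8 to 153 in segment 1 (median 126), 62.2 to 161 in segment 2 (median 92.5), 24.7 to 309 in segment 3 (median 141) and 222 to 1275 in segment 4 (median 682). Fish 2 was the lowest in segments 1, 3 and 4, and its segment 4 value (222) was above every library of segment 1 and inside the range of segment 3. SLC1A4 rose in segment 4 against segment 1 with a log2 fold change of 2.45 ± 0.48 (limma adjusted p = 0.000367), and 2.76 (limma adjusted p = 7.57e-05) without segment 4 of fish 2. A rise relative to segment 3 had a log2 fold change of 2.62 ± 0.48 (limma adjusted p = 0.000429), and 2.93 (limma adjusted p = 6.87e-05) without that library.

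SLC1A7 (LABE_00047605) is named after EAAT5, a glutamate carrier known from the mammalian retina, and declined along the gut with counts of 225 to 759 in segment 1 (median 506), 117 to 469 in segment 2 (median 386), 111 to 358 in segment 3 (median 249.8) and 35.0 to 109 in segment 4 (median 54.7). Its segment 4 libraries all lay below those of segment 3, and fish 1 was the lowest in segments 1, 2 and 4. It fell in segment 4 against segment 1 with a log2 fold change of -2.96 ± 0.37 (limma adjusted p = 9.77e-07), and -3.13 (limma adjusted p = 6.5e-07) without segment 4 of fish 2. Relative to segment 3 it fell with a log2 fold change of -1.84 ± 0.37 (limma adjusted p = 0.000959), and -2.01 (limma adjusted p = 0.000391) without that library. In segment 3 against segment 1 it fell with a log2 fold change of -1.12 ± 0.37 (limma adjusted p = 0.0412), a call that was lost with no filter (0.0536) and without fish 2, 3, 4, 5 or 6 (limma adjusted p = 0.0816 to 0.122). The 4 other models of this name did not pass the filter, with highest values of 1.19 to 21.8. Slc1a5 (LABE_00026965), or ASCT2, is named outside the rule and fell with a log2 fold change of -0.50 ± 0.12 (limma adjusted p = 0.00227) in 6 of 6 fish, or -0.50 (limma adjusted p = 0.00356) without segment 4 of fish 2.

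In family 38, the models named after lysosomal carriers were higher in the hind-gut. Of 12 models tested, 4 were higher (33.3%) and 3 lower (25%) in segment 4 than in segment 1, beside 17.1% and 14.8% of all gene models. The same 4 were the ones higher in segment 4 than in segment 3, beside 5.21% of all gene models. The model slc38a7 (LABE_00005918), or SNAT7, exports glutamine and asparagine from lysosomes in mammalian cells, and it had counts of 168 to 311 in segment 1 (median 236), 184 to 351 in segment 2 (median 233), 194 to 385 in segment 3 (median 205) and 693 to 2377 in segment 4 (median 1735). Segments 1 to 3 had similar medians, and each segment 4 library was above all of them, with fish 2 the lowest at 693. It rose in segment 4 against segment 1 with a log2 fold change of 2.74 ± 0.24 (limma adjusted p = 5.55e-09), and 2.98 (limma adjusted p = 3.78e-11) without segment 4 of fish 2. Against segment 3 it rose with a log2 fold change of 2.75 ± 0.24 (limma adjusted p = 2.06e-08), and 2.99 (limma adjusted p = 5.49e-11) without that library.

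Both models of slc38a9, which in mammals senses arginine at the lysosomal membrane for the growth kinase complex mTORC1, showed the same pattern. The model slc38a9 (LABE_00073951) had counts of 582 to 729.5 in segment 1 (median 611), 469.8 to 819 in segment 2 (median 664), 469.7 to 696 in segment 3 (median 643) and 736 to 1736 in segment 4 (median 1373). The model slc38a9 (LABE_00082512) had counts of 358 to 598 in segment 1 (median 475), 300.2 to 603 in segment 2 (median 467), 363 to 582 in segment 3 (median 457) and 499 to 1269 in segment 4 (median 1049). Fish 2 was the lowest in segment 4 for both. Its segment 4 value lay within the range of segment 2 for LABE_00073951 and within the ranges of segments 1, 2 and 3 for LABE_00082512, and the other 5 fish were above all libraries of those segments. In segment 4 against segment 1, LABE_00073951 (slc38a9) rose with a log2 fold change of 1.02 ± 0.17 (limma adjusted p = 6.74e-05), or 1.18 (limma adjusted p = 1.09e-06) without segment 4 of fish 2. LABE_00082512 (slc38a9) rose with a log2 fold change of 1.02 ± 0.20 (limma adjusted p = 0.000262), or 1.21 (limma adjusted p = 3.26e-06) without that library. Against segment 3, slc38a9 showed a log2 fold change of 1.11 ± 0.17 (limma adjusted p = 5.24e-05) for LABE_00073951 and a log2 fold change of 1.10 ± 0.20 (limma adjusted p = 0.000293) for LABE_00082512. Without segment 4 of fish 2, these slc38a9 changes were 1.27 (limma adjusted p = 5.8e-07) and 1.29 (limma adjusted p = 2.45e-06). The ratio of LABE_00073951 to LABE_00082512 lay between 1.03 and 1.88 over the 24 libraries (median 1.29). RefSeq lists 1 wrasse gene with this symbol, and genes under other symbols are not in that count. Whether the pair shares reads was not tested.

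The model slc38a6 (LABE_00038569) encodes a member whose substrates are less well known, and it had counts of 49.4 to 260.0 in segment 1 (median 196), 79.5 to 268 in segment 2 (median 208), 77.0 to 230.1 in segment 3 (median 155) and 291 to 760.2 in segment 4 (median 402). Fish 1 and 4 were the lowest in segments 1 to 3, and all segment 4 libraries lay above those of segments 1, 2 and 3. It rose in segment 4 against segment 1 with a log2 fold change of 1.63 ± 0.42 (limma adjusted p = 0.00403), and 1.72 (limma adjusted p = 0.00414) without segment 4 of fish 2. Relative to segment 3 it rose with a log2 fold change of 1.54 ± 0.42 (limma adjusted p = 0.0148), or 1.63 (limma adjusted p = 0.0129) without that library, a call that was lost without fish 6 (0.08). The 3 models lower in segment 4 than in segment 1 are named outside the rule: Slc38a3 (LABE_00032650) with a log2 fold change of -0.71 ± 0.17 (limma adjusted p = 0.00204), or -0.71 (limma adjusted p = 0.0034) without segment 4 of fish 2, SLC38A3 (LABE_00001742) with a log2 fold change of -0.36 ± 0.13 (limma adjusted p = 0.0424) and slc38a11 (LABE_00036604) with a log2 fold change of -0.46 ± 0.17 (limma adjusted p = 0.0464), or -0.48 (limma adjusted p = 0.0486) without that library. Of these, SLC38A3 (LABE_00001742) was lost without segment 4 of fish 2 (0.103), without fish 2, 3, 4 or 6 (0.0941 to 0.125), with array weights (0.0759) and with no filter (0.0544), and slc38a11 without fish 1, 3, 4 or 6 (0.0819 to 0.241) and with no filter (0.0615). The other 5 models did not pass, with log2 fold changes of -0.11 for SLC38A4 (LABE_00050527) to 0.28 for Slc38a3 (LABE_00007218).

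**Figure D5:**
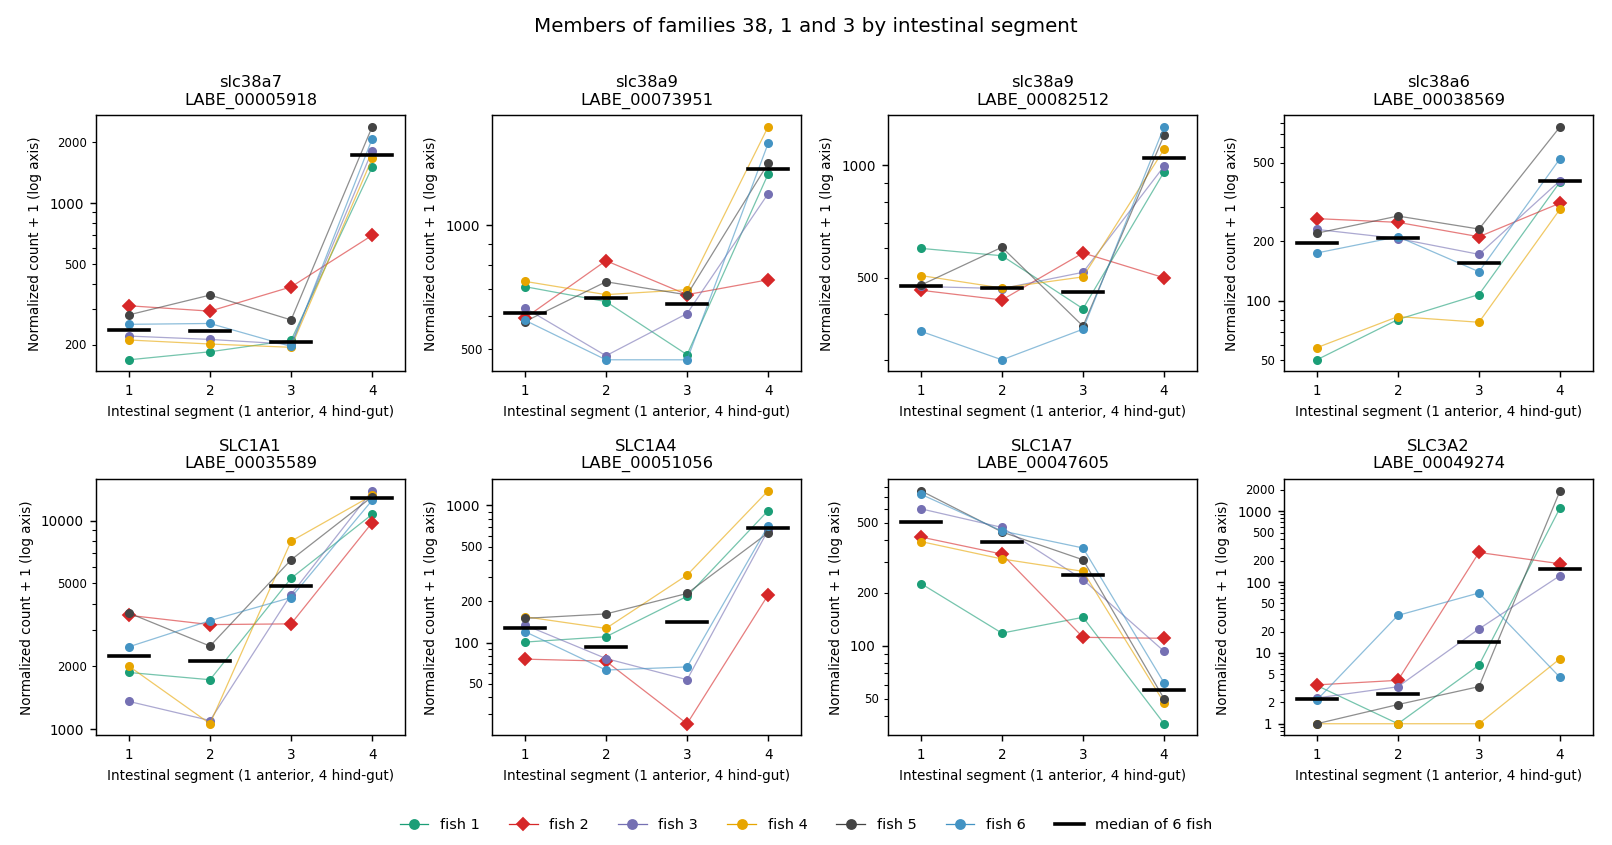
Normalized counts + 1 (log axis) in segments 1 to 4 of 4 models of family 38, 3 of family 1 and SLC3A2 LABE_00049274, with a line per fish and a black bar for the median of 6 fish. slc38a7, both slc38a9 models and slc38a6 are level in segments 1 to 3 and higher in segment 4, with fish 2 the lowest there for slc38a7 and slc38a9.

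A list of genes of lysosomal amino acid sensing held the Rag GTPases, the Ragulator subunits that anchor them to the lysosome, folliculin and the mTOR kinase with raptor. Of 13 models tested, 9 (69.2%) were higher in segment 4 than in segment 1 in limma, beside 17.1% of all gene models. Without segment 4 of fish 2 they were 9 also, beside 3531 of the 19515 gene models tested. Relative to segment 3, 7 (53.8%) were higher in segment 4, beside 5.21% of all gene models. In each comparison the remaining models did not pass without a term for fish. With fish as a block, 11 were higher than in segment 1 and 9 than in segment 3, beside 4285 and 1691 of the 19515 gene models tested. The comparisons had median log2 fold changes of 0.64 and 0.63 beside 0.04 and -0.01 over all gene models. LAMTOR1 (LABE_00032022), the Ragulator subunit with the highest mean of the called models, averaged 3489 in segment 4 and 1945 in segment 1 (log2 fold change 0.85, limma adjusted p = 0.000174). Of the 13 tested marker models of vacuolated hind-gut enterocytes, 7 were higher and 4 lower in segment 4 than in segment 1. These are 53.8% and 30.8%, beside 17.1% and 14.8% of all gene models. With fish as a block they were 8 higher and 4 lower, beside 4285 and 3865 of the 19515 gene models tested. The amino acid starvation response had 7 tested models, and atf4 and eif2ak4 each had more than 1 of them. Of the 7, chac1 (LABE_00013226) fell (log2 fold change -0.51, limma adjusted p = 0.0389), and the other 6 did not pass. That is 14.3% lower, beside 14.8% of all gene models. With fish as a block, 1 of those 6 passed as higher, beside 4285 of the 19515 gene models tested.

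Family 43 and slc16a10 carry large neutral and aromatic amino acids, mostly across the basolateral membrane. Of 8 models tested, 1 was higher (12.5%) and 2 were lower (25%) in segment 4 than in segment 1, beside 17.1% and 14.8% of all gene models, and neither of the lower calls held without segment 4 of fish 2. SLC43A2 (LABE_00027920), or LAT4, had counts of 9109 to 24716 in segment 1 (median 10690), 7032 to 25122 in segment 2 (median 11760), 5867 to 14501 in segment 3 (median 10190) and 4551 to 11093 in segment 4 (median 7298). Fish 2 was the lowest in all 4 segments and fish 3 the highest in segments 1 to 3, and 6 of 6 fish were lower in segment 4 than in segment 1. SLC43A2 (LABE_00027920) fell with a log2 fold change of -0.80 ± 0.29 (limma adjusted p = 0.0394), and the call was lost without segment 4 of fish 2 (log2 fold change -0.66, limma adjusted p = 0.0918), with quantile normalization (0.104), with array weights (0.053), with no filter (0.0506) and without fish 1, 3, 4 or 5 (0.0622 to 0.104). The second model, SLC43A2 (LABE_00055347), had a log2 fold change of -0.19 ± 0.26 (limma adjusted p = 0.645). The aromatic amino acid carrier slc16a10 (LABE_00021775), named outside the rule, had a log2 fold change of -0.45 ± 0.17 (limma adjusted p = 0.0458), a call that was lost without segment 4 of fish 2 (0.0835), with quantile normalization (0.0843), with no filter (0.0581) and without fish 2, 3, 4 or 5 (limma adjusted p = 0.0747 to 0.204).

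SLC43A3 (LABE_00031946), whose mammalian counterpart carries purine nucleobases and not amino acids, rose along the gut with counts of 223 to 799 in segment 1 (median 629.9), 482 to 1075 in segment 2 (median 844), 749 to 1805 in segment 3 (median 1275) and 1297 to 2477 in segment 4 (median 1624). No segment 4 library was as low as the highest of segment 1, and fish 1 was the lowest at both ends of the gut. It rose in segment 4 against segment 1 with a log2 fold change of 1.64 ± 0.27 (limma adjusted p = 5.19e-05), and 1.66 (limma adjusted p = 0.000102) without segment 4 of fish 2. In segment 3 against segment 1 it rose with a log2 fold change of 1.15 ± 0.27 (limma adjusted p = 0.00537) in 6 of 6 fish, and segment 3 against segment 2 passed with fish as a block (log2 fold change 0.70, limma adjusted p = 0.0423). Its namesakes SLC43A3 LABE_00039540 and LABE_00054716 had a log2 fold change of 0.03 ± 0.23 (limma adjusted p = 0.937) and a log2 fold change of 0.53 ± 0.37 (limma adjusted p = 0.306). The proton-coupled carrier SLC36A1 (LABE_00023473), known from lysosomes and the brush border of mammals, is named outside the rule. It had a log2 fold change of 0.34 ± 0.18 (limma adjusted p = 0.162) in segment 4 against segment 1 and a log2 fold change of 0.49 ± 0.18 (limma adjusted p = 0.0852) against segment 3, and the comparison with segment 3 passed without segment 4 of fish 2 (0.0433), with fish as a block (0.0221) and with array weights (0.025). Without all of fish 2 both passed (limma adjusted p = 0.00797 against segment 1 and 0.012 against segment 3).

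The 19 members that did not pass the filter had highest values of 1.19 to 165, and 12 of them never reached 10 in any library. They include both models of slc38a8 and of slc7a14a, a second slc7a6, Slc7a10 and Slc7a11 model, and models of slc1a1, slc1a2, slc1a3, slc1a7, slc6a19 and slc7a2. No member carried the name slc6a18.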

How the data were processed

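Libraries were made with the TruSeq RNA v2 kit, which does not mark strand, from 24 gut samples of 6 fish. Per the labels and the study's methods, the authors trimmed reads with cutadapt and sickle, checked them with FastQC 0.9.2, aligned them to their own genome assembly with TopHat2 and counted them per gene model with featureCounts (Subread). No source used here gives the other versions or the handling of strand and of reads with several matches. The deposited values are the authors' normalized counts, a signal of reads divided by a DESeq2 size factor and written with 5 significant digits. Whole reads were recovered from them: 93.68 to 99.18% of the values per library came out within 0.05 of a whole number. The table held 27392 gene models, 23171 with a name and 4221 unknown, and 1 blank row was left out.

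Segments were compared with limma 3.58.1 in R 4.3.3 on log2(value + 1) of the 19515 gene models with at least 10 in at least 6 libraries, with all 24 libraries in 1 fit, a trended variance, moderated F and contrast tests and Benjamini-Hochberg adjustment at 0.05 over all of them. Fold changes are on that scale, printed ± their standard error, and understate the changes of low genes. The main fit had no term for fish. The 4 segments of each fish are paired. Deviations from the segment means correlated at 0.435 on average between libraries of the same fish (lowest pair 0.157). Between libraries of different fish and different segments the average was -0.0864. That value follows from taking deviations from the segment means and is no separate measure. The blocked value therefore stands beside each result given for a single member whose call it changed. Blocked counts stand beside the counts of members called in each comparison. The alternatives were pseudocounts of 0.5 and 8, no filter, a minimum of 50, quantile and TMM scaling, edgeR 4.0.16 and DESeq2 1.42.0 on the recovered reads, array weights, robust moderation, the fish block, and leaving out segment 4 of fish 2 or each fish in turn. The main limma fit was run on simulated counts with changes in segment 4 only and no effect of fish. The pairing of the segments was therefore not part of that test.

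Named in the text are members that passed the F test with a log2 fold change of at least 1 in a comparison (up to 25), the 10 with the highest mean, and models that share their names. Members and lists were chosen with earlier results of these data known, and a list of brush border partner genes is not reported here. RefSeq names (assembly fLabBer1.1) were used for counts of genes per name only, and no sequence is shown. A gene was counted only where its symbol was the name itself, with or without a final a or b.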

Additional observations from a re-analysis of the deposited data

Results flagged for a closer look

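Libraries far from the other fish of their segment were sought by Dixon's test in 92 groups (23 members in 4 segments of 6 fish), of which chance flags about 1 in 20, and 13 were found. Of these, 6 were the segment 4 library of fish 2, the library whose profile stood apart over 1000 gene models. In that library SLC15A1 (LABE_00037938) had 14451, against 667 to 889 in the other fish. Slc15a1 (LABE_00017465) had 2650 there, against 42.6 to 77.9. Slc6a19 (LABE_00034444) had 2179, against 15.7 to 44.6 in the other fish. The lysosomal carriers were low in the same library, with slc38a7 (LABE_00005918) at 693, against 1502 to 2377, and slc38a9 (LABE_00082512) at 499, against 960.3 to 1269. SLC7A8 (LABE_00029032) had 2472 there and 3484 to 4062 in the other fish.

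Fish 2 also gave 2 of the remaining values. Slc15a1 (LABE_00017465) was at 4238 in its segment 3, against 9392 to 15131 in the other fish, and SLC7A2 (LABE_00027118) at 27712 in its segment 2, against 14632 to 18063. Fish 1 gave 3, all low. They were SLC1A7 (LABE_00047605) in segment 2, with 117 against 309.9 to 469, SLC43A3 (LABE_00031946) in segment 1, with 223 against 618 to 799, and Slc6a19 (LABE_00023250) in segment 4, with 6873 against 10758 to 12956. SLC15A1 (LABE_00049604) in segment 2 of fish 6 had 1488 (others 87.0 to 246), and SLC6A19 (LABE_00088770) in segment 4 of fish 5 had 20.1 (others 318 to 1213).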

How the results depend on the processing

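The 23 members chosen by the F test or by the mean had 40 called results. Of these, 29 kept their direction and their call under every one of the 18 alternatives that gave an adjusted p, and no result reversed under any of them. Models that only share a name, such as slc7a2 (LABE_00008550), and members named outside the rule, such as SLC6A6 (LABE_00008234), are not in this count. Several of their calls were lost under alternatives, as given above. DESeq2 gave no adjusted p for Slc15a1 (LABE_00017465) in segment 4 against segment 1 or against segment 3. The members called in segment 2 against segment 1 numbered 0 in the main analysis, 1 with edgeR, 1 with DESeq2, 1 with array weights, 1 without segment 4 of fish 2, 3 with fish as a replicate block, and 0 to 2 when a fish was left out. Leaving out each fish in turn gave 1 to 2 called members in segment 3 against segment 2 (2 in the main analysis), 8 to 14 in segment 3 against segment 1 (13), 12 to 17 in segment 4 against segment 3 (15), 25 to 30 in segment 4 against segment 1 (31) and 21 to 31 by the F test (28). The counts over all gene models moved too when a fish was left out. Segment 4 against segment 1 then gave 2496 to 3396 higher and 2345 to 2987 lower (3334 and 2887 in the main analysis). The F test gave 4063 to 6004 (5363). The block turned no called result of a named member into an uncalled one. Lost calls of named members stand beside their results, and beyond the alternatives' own construction (fewer fish, fewer or more genes tested) their causes were not tested. For the within-fish comparison of models that share a name, leaving out a fish was not run because the smallest p would be 0.0625. Precision is limited by 6 fish per segment, and for models near 0, such as SLC3A2 (LABE_00049274) in segments 1 and 2, by counting.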

Other observations

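A model of the cationic carrier SLC7A2 (LABE_00049300) that did not pass the filter was at 0 in all 6 libraries of segment 1. In segment 4 it had 134 in fish 1, 8.91 in fish 2, 7.16 in fish 3, 0.911 in fish 4, 165 in fish 5 and 1.75 in fish 6. The same 2 fish, 1 and 5, had the highest segment 4 values of SLC3A2 (LABE_00049274), with 1117 in fish 1 and 1948 in fish 5. They were also highest there for Slc7a8 (LABE_00053553), with 100 and 133, Slc3a2 (LABE_00054811), with 84.2 and 208, and Slc7a10 (LABE_00018649), with 20.8 and 22.0. The order is thus not particular to a pair of models, nor shared by all members, as SLC1A4 (LABE_00051056) was highest in fish 4 (1275). These models were chosen here after their values were seen.

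The segment 3 library of fish 2 held the highest segment 3 value of several brush border and cationic carriers. Slc6a19 (LABE_00034449) had 34506 there, against 4926 to 10338 in the other fish, SLC6A20 (LABE_00065707) had 7255, against 1216 to 3729, SLC7A2 (LABE_00027118) had 31376, against 9354 to 17050.0, and SLC7A1 (LABE_00049384) had 5050.3, against 2448 to 3869. In the same library Slc15a1 (LABE_00017465) and SLC1A4 (LABE_00051056) were the lowest of segment 3, with 4238 and 24.7. The brush border carrier SLC1A1 (LABE_00035589) was also lowest there, with 3195, against 4275 to 7963 in the other fish. So were SLC3A1 (LABE_00047673), with 1765 against 2170 to 4163, and SLC15A1 (LABE_00049604), with 1928 against 3014 to 7962. Brush border carriers thus went either way in this library, and all these members were chosen after their values were seen.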
